A study of Mus musculus with 4 samples.

Results

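Aminoacyl-tRNA synthetases attach each amino acid to its matching tRNA and so supply the ribosome with charged tRNAs. Animal cells have one set of these enzymes for the cytosol and another, mostly encoded by separate nuclear genes whose symbols end in 2, for the mitochondrion. In the cytosol, several of the enzymes are held in a multisynthetase complex by the scaffold proteins that Aimp1, Aimp2 and Eef1e1 encode. The genes described here are those whose symbol marks a synthetase, together with these scaffold genes. Each gene was taken by its name, but the set was chosen with earlier results of these data known. Of 18193 genes represented on the array by a probe set with a single gene symbol, 38 met this rule, through 76 probe sets of 45101. They comprise 19 cytosolic synthetase genes, 16 mitochondrial synthetase genes and 3 scaffold genes. Each gene is read from 1 probe set, the brightest that is not of the cross-hybridising type where another exists.

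The cells were C2C12, an immortalised mouse myoblast line that forms myotubes when serum is withdrawn. One group stably carried a plasmid for a short hairpin RNA against LSD1 (shLSD1, 2 arrays), and its control a plasmid for a hairpin without a target (shControl, 2 arrays). LSD1 is the histone demethylase encoded by Kdm1a. Both groups were grown in DMEM with 25 mM glucose, 10% fetal bovine serum and 750 µg/mL hygromycin B, and RNA was taken 48 hours after myogenic induction, for which the medium was changed to one with 2% horse serum. The labels give 1 stable selection per hairpin, so effects of selection and of knockdown cannot be told apart. Nor do they state that replicate arrays stem from separate cultures. The spread behind every p-value is that between 2 arrays of a group, taken from the gene itself and from genes of similar signal. This spread could be technical only.

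Each array reports a signal per probe set on a linear scale, scaled by the authors, with a median of 67.3 to 69.7 over all probe sets. The number of arrays limits the precision. Kdm1a had signals of 922 and 1034 in shLSD1 cells, against 4603 and 4588 in shControl cells, which leaves 21.3% of the control level (log2 fold change -2.23, SE 0.07; limma adjusted p = 2.89e-05). All 12 skeletal muscle markers on the list passed the signal filter, a mean log2 signal of 6.03, which is a signal of 65.4. Of 6 macrophage markers 1 passed it, Csf1r, which was not called, and of 5 endothelial and 4 measured adipocyte markers 0 passed it, so that Ptprc, Pecam1 and Adipoq were all below it. Of 6 epithelial markers 2 passed it and 1 of them rose, with a summed signal of the list of 362 and 336 in shLSD1 cells, against 238 and 229 in shControl cells. Of the 12 muscle markers, 9 fell and 0 rose in shLSD1 cells, with 1 at an unadjusted limma p under 0.05 in the upward direction, and their summed signal was 153835 and 165055 in shLSD1 cells against 217360 and 214199 in shControl cells. Of 9 measured proliferation markers, 6 rose and 0 fell, with a summed signal of 15394 and 14446 in shLSD1 cells against 11721 and 11902 in shControl cells. Their part in the synthetase results was not tested. In such bulk samples, fewer cells of a type and less RNA per cell cannot be told apart.

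Part of the synthetase genes fell by small amounts in shLSD1 cells, most of them cytosolic; the difference between the cytosolic and mitochondrial sets was not tested. Of the 37 genes bright enough to be tested, 12 fell and 0 rose (limma, Benjamini-Hochberg adjusted p under 0.05 over all 10879 genes tested), with 1 gene higher at an unadjusted p under 0.05. Among all genes tested, 7.09% were called lower and 8.75% higher, and among the tested synthetase and scaffold genes 32.4% were called lower. The median log2 fold change, shLSD1 minus shControl, was -0.19 for the 19 cytosolic synthetase genes, -0.01 for the 15 tested mitochondrial genes and -0.28 for the 3 scaffold genes, beside a median of 0.00359 over all genes tested. Among the 6869 genes above a stricter signal filter, 9.22% were called lower, and 10.1% higher, and there too 12 of the synthetase and scaffold genes were lower. At an adjusted p under 0.01, 2 of the 37 genes fell, Nars2 and Aimp2, beside 3.2% lower and 3.81% higher among all genes. At 0.1, 14 were lower and 1 higher, beside 10.7% lower and 13.2% higher among all genes.

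These calls rest on small differences measured on few arrays. The count of 12 became 1 without shControl replicate 1, 1 without shControl replicate 2 and 1 when the variance was modelled without its trend on signal. The gene called in each of these was Nars2. Over all genes the calls without shControl replicate 1 numbered 228 lower and 352 higher. Without shLSD1 replicate 1 and without shLSD1 replicate 2 the count was 13 each time. The direction of each of the 12 was the same under all 14 alternatives run on it. Most of these could not have turned it. In each of the 12 genes both shLSD1 signals lay below both shControl signals, so leaving out 1 array keeps the sign. Alternatives that change only the filter or the variance model leave the fold change as it was.

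**Figure D1:**
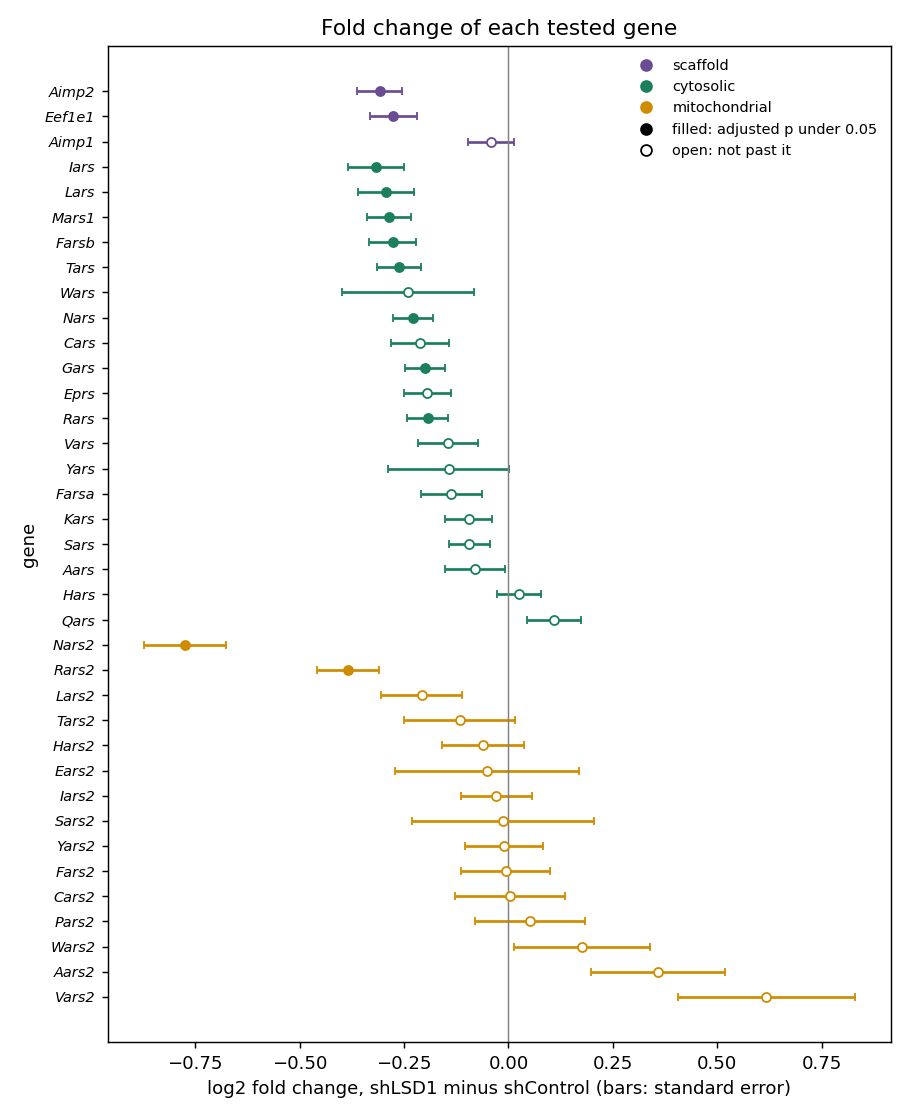
Log2 fold change, shLSD1 minus shControl (x axis), of each of the 37 tested genes (y axis), with bars for the standard error of the limma fit on 2 arrays per group. Filled points passed an adjusted p of 0.05; the 12 filled points lie between -0.78 and -0.19, all below 0.

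Within the cytosolic set, 8 of 19 genes fell, 0 rose and 11 did not pass the test, with 0 higher also at an unadjusted limma p under 0.05. Iars, which encodes the isoleucine enzyme, had signals of 2773 and 2957 in shLSD1 cells, against 3388 and 3755 in shControl cells. Both shLSD1 arrays lay below both shControl arrays, and Iars fell to 80.3% of the control level (log2 fold change -0.32, SE 0.07, limma adjusted p = 0.0186). A second Iars probe set gave a larger fall, -0.52. Lars, for leucine, whose product also acts as a leucine sensor upstream of the kinase mTORC1, had signals of 2587 and 2909 in shLSD1 cells, against 3389 and 3337 in shControl cells. The groups did not overlap, although the shLSD1 arrays differed from each other more than the shControl arrays did, and Lars fell by 0.29 (SE 0.07, limma adjusted p = 0.0244). Mars1, the methionine enzyme that also charges the initiator tRNA, had 3044 and 3033 in shLSD1 cells and 3622 and 3789 in shControl cells. Its shLSD1 arrays were nearly equal, and it fell by 0.29 (SE 0.05, limma adjusted p = 0.0106).

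Phenylalanine is charged in the cytosol by an enzyme built of alpha subunits, from Farsa, and beta subunits, from Farsb. Farsb had signals of 2326 and 2442 in shLSD1 cells, against 2868 and 2907 in shControl cells, and fell by 0.28 (SE 0.06, limma adjusted p = 0.0153). The other 3 Farsb probe sets above the filter gave -0.56 to -0.18, and none of them passed the test when every probe set was fitted. Farsa had 1244 and 1245 in shLSD1 cells and 1306 and 1434 in shControl cells. Farsa did not pass the test, although its groups did not overlap (log2 fold change -0.14, SE 0.07, limma adjusted p = 0.256). Whether the subunit genes differ from each other in response was not tested.

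The threonine gene Tars had signals of 3926 and 3700 in shLSD1 cells, against 4601 and 4540 in shControl cells, and fell by 0.26 (SE 0.05, limma adjusted p = 0.0148). Nars, for asparagine, had 6272 and 6489 in shLSD1 cells and 7634 and 7311 in shControl cells, a fall to 85.4% of the control level (log2 fold change -0.23, SE 0.05, limma adjusted p = 0.0178). For both genes the higher shLSD1 array remained under the lower shControl array. Gars, whose transcripts give the glycine enzyme of the cytosol and of the mitochondrion alike, had 5612 and 5602 in shLSD1 cells and 6298 and 6587 in shControl cells, and fell by 0.20 (SE 0.05, limma adjusted p = 0.0277). Rars, for arginine, had 4110 and 4178 in shLSD1 cells and 4660 and 4817 in shControl cells, and fell by 0.19 (SE 0.05, limma adjusted p = 0.0355). The calls of Gars and Rars were also lost with no filter on dim probe sets, and those of Rars, Lars and Farsb with the mean of all probe sets in place of 1 per gene. Rars and Lars have no other probe set, so their own values did not change in that fit. Over all genes it called 407 lower, against 771 in the main fit.

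**Figure D2:**
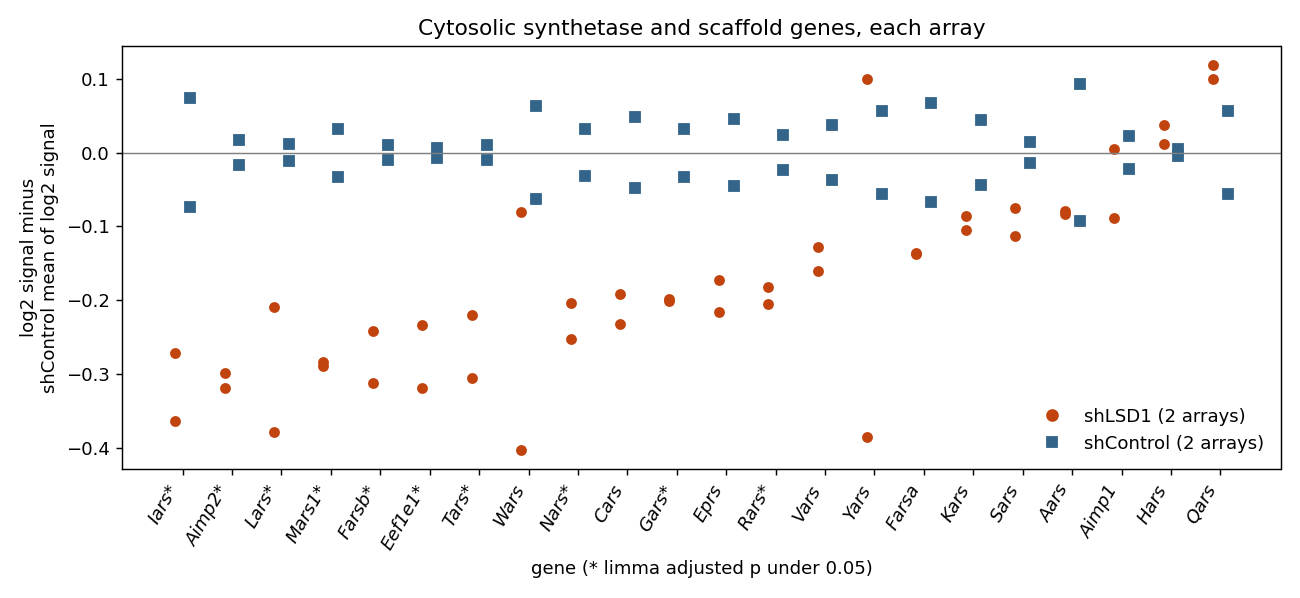
Log2 signal of each array minus the mean log2 signal of the shControl arrays (y axis) for the 19 cytosolic synthetase genes and the 3 scaffold genes (x axis), ordered by fold change; circles are the 2 shLSD1 arrays and squares the 2 shControl arrays. In 15 of the cytosolic genes and 2 scaffold genes both circles lie under both squares; in Hars and Qars both lie above.

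Among the 11 cytosolic genes that did not pass the test, Eprs and Cars came nearest. Eprs encodes one polypeptide that charges both glutamate and proline. Its signals were 3091 and 2999 in shLSD1 cells, against 3596 and 3376 in shControl cells (log2 fold change -0.19, SE 0.06, limma adjusted p = 0.0571). Of its other probe sets above the filter, 1 gave -0.26 and passed the test when every probe set was fitted (limma adjusted p = 0.0485), and the other gave -0.23 and did not. In that fit 5.06% of all probe sets were called lower and 6.2% higher. Cars, for cysteine, had 1253 and 1289 in shLSD1 cells and 1522 and 1423 in shControl cells (log2 fold change -0.21, SE 0.07, limma adjusted p = 0.0808). Neither pair of groups overlapped. Vars, for valine, measured -0.14 (SE 0.07), Kars, whose products also serve both compartments with the lysine enzyme, -0.10 (SE 0.06), Sars, for serine, -0.09 (SE 0.05) and Aars, for alanine, -0.08 (SE 0.07). Their limma adjusted p ranged from 0.219 for Vars to 0.503 for Aars.

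Yars and Wars had the widest spread of the cytosolic set, with an SE of 0.15 for Yars and 0.16 for Wars. Yars, for tyrosine, had signals of 887 and 1240 in shLSD1 cells, against 1113 and 1204 in shControl cells, so the shLSD1 arrays lie on both sides of the control range (log2 fold change -0.14, limma adjusted p = 0.558). Without shLSD1 replicate 2 it measured -0.38 and passed the test, and without shLSD1 replicate 1 it measured 0.10. Wars, the tryptophan gene that interferon induces, had 215 and 269 in shLSD1 cells and 272 and 297 in shControl cells (log2 fold change -0.24, limma adjusted p = 0.349), so that the higher shLSD1 array almost reached the lower control array. The other 3 Wars probe sets gave -0.17 to -0.10.

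In the probe sets chosen for them, only the glutamine and histidine genes of the cytosolic set had positive values. Qars had signals of 1870 and 1895 in shLSD1 cells, against 1815 and 1678 in shControl cells (log2 fold change 0.11, SE 0.07, limma adjusted p = 0.308). Both shLSD1 arrays lay above both control arrays, but 2 other Qars probe sets above the filter, both of the cross-hybridising type, gave -0.23 and 0.26, and the second of these passed the test when every probe set was fitted (limma adjusted p = 0.0373). Hars had 2825 and 2776 in shLSD1 cells and 2744 and 2763 in shControl cells (log2 fold change 0.02, SE 0.05, limma adjusted p = 0.795), and its second probe set gave -0.0159. The SE of Hars was close to that of genes that passed the test, 0.05 to 0.07 for the 8 cytosolic genes that fell.

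Of the scaffold genes of the multisynthetase complex, 2 of 3 fell, and all 3 had negative values. Aimp2 had signals of 2379 and 2412 in shLSD1 cells, against 2932 and 3001 in shControl cells, and fell by 0.31 (SE 0.05, limma adjusted p = 0.00859), to 80.8% of the control level. A second Aimp2 probe set gave -0.36. Eef1e1, which encodes a small scaffold related to elongation factor subunits, had 2508 and 2662 in shLSD1 cells and 3143 and 3114 in shControl cells, and fell by 0.28 (SE 0.06, limma adjusted p = 0.0159). The groups were apart for both genes. Aimp1, which encodes a tRNA-binding scaffold, had 3394 and 3620 in shLSD1 cells and 3665 and 3551 in shControl cells, so the groups overlapped (log2 fold change -0.04, SE 0.06, limma adjusted p = 0.664). The difference between the scaffold genes themselves was not tested.

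Counting the scaffolds with the 7 measured synthetase genes of the complex (Eprs, Iars, Kars, Lars, Mars1, Qars and Rars), 6 of 10 fell, with a median log2 fold change of -0.24. Of the 12 cytosolic genes outside the complex, 4 fell, with a median of -0.17. Synthetases also fall into 2 structural classes with unrelated catalytic folds. Eprs, which charges both glutamate and proline, was counted in class I only, although the mitochondrial proline gene Pars2 is of class II. In the cytosolic set, 4 of 10 class I genes and 4 of 9 class II genes fell, with medians of -0.20 and -0.14. These are descriptions of small sets, and no difference between them was tested.

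In the mitochondrial set, 2 of 15 tested genes fell and 0 rose, beside 7.09% lower and 8.75% higher among all genes. Nars2, for mitochondrial asparagine, had signals of 528 and 604 in shLSD1 cells, against 933 and 1001 in shControl cells. The means were 566 ± 54.1 in shLSD1 cells and 967 ± 48.0 in shControl cells (SD, n = 2 each). This was the largest fall among the 37 tested genes, to 58.4% of the control level (log2 fold change -0.78, SE 0.10; limma adjusted p = 0.00227). A second Nars2 probe set, at signals of 19.5 to 22.9 on the 4 arrays, lay below the filter. The mean over both probe sets gave -0.36 and the call was lost.

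Rars2, for mitochondrial arginine, had signals of 843 and 838 in shLSD1 cells, against 1124 and 1070 in shControl cells. It fell by 0.38 (SE 0.07, limma adjusted p = 0.0129), with the arrays of each group close together. Lars2, for leucine, had 549 and 615 in shLSD1 cells and 679 and 663 in shControl cells, without overlap, and did not pass the test (log2 fold change -0.21, SE 0.10, limma adjusted p = 0.190). Another Lars2 probe set above the filter had the opposite sign, at 0.46.

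The highest values of the mitochondrial set were those of Vars2, Aars2 and Wars2, and none of the 3 passed the test. Vars2, for valine, had signals of 172 and 199 in shLSD1 cells, against 138 and 106 in shControl cells. Its groups did not overlap and its second probe set also gave a positive value, 0.34, but the SE was large (log2 fold change 0.62, SE 0.21, limma adjusted p = 0.0918). Aars2, for alanine, had 218 and 203 in shLSD1 cells and 165 and 163 in shControl cells (log2 fold change 0.36, SE 0.16, limma adjusted p = 0.179). Wars2, for tryptophan, had 202 and 224 in shLSD1 cells and 177 and 199 in shControl cells (log2 fold change 0.18, SE 0.16, limma adjusted p = 0.515). Its second probe set, of similar signal, gave 0.0064.

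The other 9 tested mitochondrial genes had, in the probe sets chosen for them, overlapping groups and log2 fold changes between -0.12 and 0.05. These were Tars2, Hars2, Ears2, Iars2, Sars2, Yars2, Fars2, Cars2 and Pars2, named for threonine, histidine, glutamate, isoleucine, serine, tyrosine, phenylalanine, cysteine and proline. Other probe sets above the filter gave -0.46 for Iars2, -0.20 for Cars2, -0.20 for Yars2, -0.01 for Tars2 and 0.09 for Hars2. None of them passed the test when every probe set was fitted. For Yars2 the arrays agreed closely, with signals of 512 and 501 in shLSD1 cells and 510 in both shControl arrays. For Sars2 they did not, with 192 and 198 in shLSD1 cells, against 242 and 160 in shControl cells. Mars2, for methionine, was not tested, since its mean signal lay just under the filter, with 61.0 and 59.6 in shLSD1 cells and 70.9 and 57.3 in shControl cells. The median SE was 0.13 in the mitochondrial set and 0.06 in the cytosolic set.

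**Figure D3:**
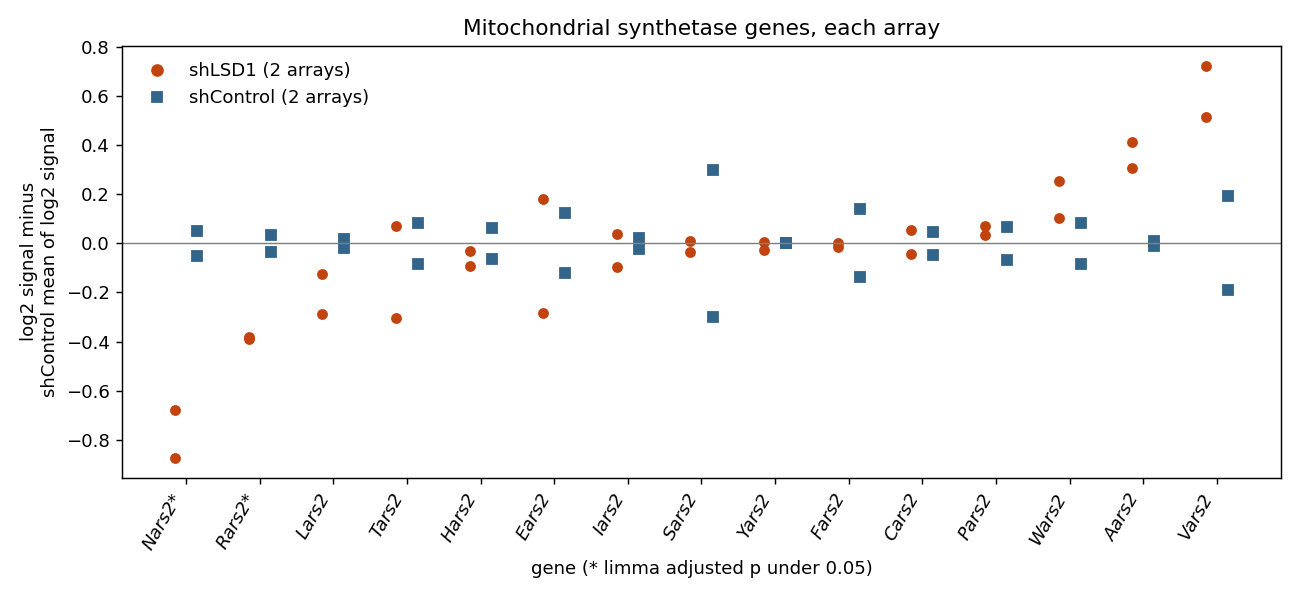
Log2 signal of each array minus the mean log2 signal of the shControl arrays (y axis) for the 15 tested mitochondrial synthetase genes (x axis), ordered by fold change; circles are the 2 shLSD1 arrays and squares the 2 shControl arrays. Nars2, Rars2 and Lars2 have both circles under both squares, and Wars2, Aars2 and Vars2 have both above.

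Seen array by array, the cytosolic shift was in both knockdown samples. The median over the 19 cytosolic genes of the log2 signal minus its control mean was -0.21 in shLSD1 replicate 1 and -0.18 in shLSD1 replicate 2, against -0.01 and 0.01 in the shControl arrays. Over the 15 mitochondrial genes it was -0.02 and 0.00148 in shLSD1 cells, against 0.02 and -0.02 in shControl cells. Both shLSD1 signals lay below both shControl signals in 20 of the 37 tested genes and above them in 5, beside 29.4% and 30.7% of all genes tested. In the cytosolic set the genes with both shLSD1 signals below numbered 15 of 19, and in the mitochondrial set 3 of 15.

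Set side by side for the same amino acid, 16 pairs of a cytosolic and a mitochondrial gene could be compared, with Farsa, Farsb and Eprs each paired to their mitochondrial counterparts, so that Eprs and Fars2 each stand in 2 pairs. In 2 pairs, for asparagine and arginine, both genes fell. In 4 pairs the cytosolic gene passed the test and the mitochondrial one did not, in 0 the reverse, and in 10 neither did. The cytosolic value was the lower one in 13 of 16 pairs. The widest gap was that of valine, with -0.14 for Vars and 0.62 for Vars2, and the widest in the other direction was that of asparagine, with -0.23 for Nars and -0.78 for Nars2. No pair's difference was tested.

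**Figure D4:**
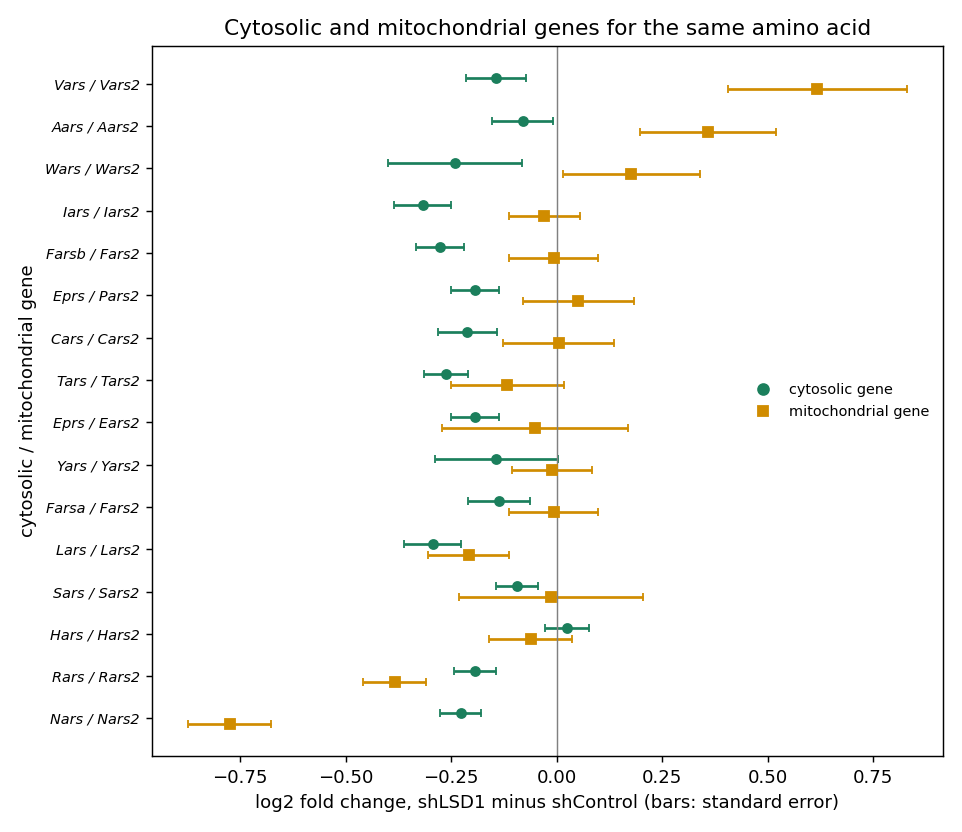
Log2 fold change, shLSD1 minus shControl (x axis), of the cytosolic gene (circles) and the mitochondrial gene (squares) of each of 16 pairs for the same amino acid (y axis), with bars for the standard error of the limma fit on 2 arrays per group. The cytosolic circles lie between -0.32 and 0.02, and the mitochondrial squares between -0.78 and 0.62.

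Synthetase genes are known targets of the transcription factor ATF4, which acts in the amino acid response, and of Myc. Upstream sequences are shown for genes that hold one of the letter patterns known for these factors, and for Nars2, which fell most and holds neither. Promoter entries of 29 of the 38 genes were taken from RefSeq's GRCm38.p6 table, and the 250 bases before each start were searched on both strands. Hars, Hars2, Lars and Nars were left out of this search by choice, whether or not the table lists them. Their absence therefore does not show that an entry or a pattern is lacking. TGATGNAA, the core of the amino acid response element, was present upstream of Aars, Gars and Tars, and in 3.45% of 32851 promoters of the same length. CACGTG, the E-box bound by Myc and related factors, was present upstream of Aars, Farsb and Iars, and in 6.02% of them. Each pattern was thus held by 3 of the 29 genes. A gene was counted when any of its promoter entries held the pattern, while the shares over all promoters count single entries. Capitals mark these patterns on either strand, which overlap in no sequence printed.
Tars: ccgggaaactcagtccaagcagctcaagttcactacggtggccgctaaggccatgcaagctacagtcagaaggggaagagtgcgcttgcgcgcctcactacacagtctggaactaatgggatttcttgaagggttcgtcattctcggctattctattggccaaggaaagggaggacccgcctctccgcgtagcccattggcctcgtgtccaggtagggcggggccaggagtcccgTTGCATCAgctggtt
Gars: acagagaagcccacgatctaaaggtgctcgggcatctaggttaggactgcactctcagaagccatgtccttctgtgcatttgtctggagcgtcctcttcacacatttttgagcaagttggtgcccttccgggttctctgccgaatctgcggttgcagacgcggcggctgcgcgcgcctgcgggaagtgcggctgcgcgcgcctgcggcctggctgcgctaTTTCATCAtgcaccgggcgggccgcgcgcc
Aars: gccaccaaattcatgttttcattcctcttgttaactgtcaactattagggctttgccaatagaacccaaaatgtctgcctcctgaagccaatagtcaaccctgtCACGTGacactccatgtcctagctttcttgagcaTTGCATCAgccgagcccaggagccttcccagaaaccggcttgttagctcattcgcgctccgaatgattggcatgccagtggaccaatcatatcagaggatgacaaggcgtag
Iars: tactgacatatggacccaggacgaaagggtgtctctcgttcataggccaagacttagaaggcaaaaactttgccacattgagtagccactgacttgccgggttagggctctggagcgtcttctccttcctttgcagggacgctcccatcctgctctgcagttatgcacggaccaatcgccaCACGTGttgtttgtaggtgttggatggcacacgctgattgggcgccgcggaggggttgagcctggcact
Farsb: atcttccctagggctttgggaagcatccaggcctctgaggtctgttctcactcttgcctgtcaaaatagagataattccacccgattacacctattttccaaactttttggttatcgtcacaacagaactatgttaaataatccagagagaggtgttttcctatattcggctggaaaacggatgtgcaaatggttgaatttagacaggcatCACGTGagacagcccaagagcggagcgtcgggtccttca
Nars2: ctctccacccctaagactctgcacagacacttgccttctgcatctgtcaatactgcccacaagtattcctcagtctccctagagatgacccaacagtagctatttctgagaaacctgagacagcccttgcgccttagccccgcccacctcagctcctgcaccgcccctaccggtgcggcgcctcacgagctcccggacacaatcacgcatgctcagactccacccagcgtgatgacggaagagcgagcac

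The Tars stretch is chr15:11399659-11399908, minus strand. The Gars stretch is chr6:55037751-55038000, plus strand. The Aars stretch is chr8:111033592-111033841, plus strand. The Iars stretch is chr13:49681880-49682129, plus strand. The Farsb stretch is chr1:78488898-78489147, minus strand. The Nars2 stretch is chr7:96951277-96951526, plus strand. Of the searched genes that hold a pattern, Tars, Gars, Iars and Farsb fell, while Aars, which holds both, measured -0.08 and did not pass the test. Nars2, Mars1, Rars, Rars2, Aimp2 and Eef1e1 also fell and are not among the genes with a pattern, and Lars and Nars were not searched. Among all tested synthetase and scaffold genes 32.4% were called lower, beside 7.09% of all genes tested. Whether a pattern goes with a fall was not tested. Tars has its pattern starting 15 bases and Gars 30 bases before the start that the table gives. In Aars the amino acid response pattern starts 112 bases and the E-box 146 bases before it. The matches are a description of these letters and do not show binding.

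Other genes of amino acid supply, from lists chosen with earlier results of these data known, moved in part in the same direction. In the list for the ATF4 amino acid response, 8 of 26 tested genes fell, 2 rose and the median log2 fold change was -0.10, beside 7.09% lower and 8.75% higher among all genes. Without the intensity trend, 2 were lower and 0 higher. Asparagine synthetase, Asns, had signals of 3380 and 3855 in shLSD1 cells, against 5620 and 5401 in shControl cells, and fell by 0.61 (SE 0.07, limma adjusted p = 0.00150). The one-carbon enzyme gene Mthfd2 fell by 0.58, the serine synthesis gene Psat1 by 0.46 and the alanine aminotransferase gene Gpt2 by 0.36. Atf4 itself, named here after its value was seen, had 9024 and 9282 in shLSD1 cells and 10250 and 10945 in shControl cells, and fell by 0.21 (SE 0.05, limma adjusted p = 0.0256). With the mean of its probe sets Atf4 measured 0.05. Without shControl replicate 1 and without shControl replicate 2, 3 genes of this list were lower each time and 0 higher, and Gpt2 and Atf4 were among the calls lost. Chac1, which degrades glutathione, Psph, of serine synthesis, and the stress gene Nupr1 fell by 0.45, 0.40 and 0.30, and their calls were lost in the same way. The genes that rose, also named after their values were seen, were Ddit4 at 0.36 and Atf3 at 0.58, and both calls were lost without either shControl array.

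In the list of amino acid transporters, 5 of 16 tested genes fell and 1 rose, beside 7.09% lower and 8.75% higher among all genes. The median log2 fold change of the list was -0.16. Slc7a5, the light chain of the large neutral amino acid transporter, had signals of 2075 and 2119 in shLSD1 cells, against 3163 and 3128 in shControl cells, and fell by 0.59 (SE 0.05, limma adjusted p = 7.02e-04). Its heavy chain partner Slc3a2 fell by 0.37, the cationic transporter gene Slc7a2 by 1.14 and the neutral transporter gene Slc1a4 by 0.54. The fifth, Slc7a1, fell by 0.32, and the one that rose was Slc38a1 at 0.27, both named after their values were seen. Without shControl replicate 1 and without shControl replicate 2, 3 were lower each time and 0 higher, without shLSD1 replicate 2 also 3 and 0, and without shLSD1 replicate 1 the numbers were 7 and 1. The call of Slc3a2 was lost without shControl replicate 2, that of Slc7a2 with the mean of its probe sets, that of Slc1a4 without either shControl array and without shLSD1 replicate 2, and that of Slc38a1 in 9 of 14 alternatives. The call of Slc7a1 was lost in 5 of 14 alternatives, among them those without shControl replicate 1 and without shLSD1 replicate 2. Averaged over its probe sets, Slc7a1 measured -0.00281.

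Other parts of the translation apparatus were described in the same way, beside the same 7.09% lower and 8.75% higher among all genes. Of 15 further genes of tRNA charging and handling, 0 passed the test in either direction, and 1 was lower and 0 higher at an unadjusted limma p under 0.05. The lowest adjusted p were those of Xpot, which exports tRNA from the nucleus, at -0.17 (SE 0.05, limma adjusted p = 0.0680), and of Mtfmt, which formylates the mitochondrial initiator tRNA, at 0.26 (SE 0.13, limma adjusted p = 0.234). Mammalian mitochondria charge glutamine through an amidotransferase in place of a synthetase, and its subunit genes Gatb, Gatc and Qrsl1, named after their values were seen, measured 0.30, 0.03 and 0.05. Of 10 cytosolic elongation and termination genes, Abce1, a ribosome recycling factor, fell by 0.44 (limma adjusted p = 0.00123) and Eef2k, the kinase that inhibits elongation factor 2, rose by 0.27 (limma adjusted p = 0.0397), a call lost in 9 of 14 alternatives. At an unadjusted limma p under 0.05, 3 of these 10 were lower and 2 higher.

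Of 28 cytosolic initiation factor genes, Eif2s2 fell by 0.23 and Eif4b rose by 0.26, the median was -0.05, 7 were lower and 3 higher at an unadjusted limma p under 0.05, and 0 passed after adjustment when shControl replicate 1 or shControl replicate 2 was left out. Of 15 mitochondrial translation factor genes, 0 passed the test, with 1 lower and 1 higher at an unadjusted limma p under 0.05, and Gfm2 and Gfm1 had the lowest adjusted p, at -0.26 and 0.16. Of 74 mitochondrial ribosomal protein genes, Mrpl24 rose by 0.19 and 0 fell (9 were lower and 2 higher at an unadjusted limma p under 0.05), the median was -0.03, and the call of Mrpl24 was lost in 8 of 14 alternatives. Of 10 genes for Myc and its partners, 0 passed the test (2 were higher and 0 lower at an unadjusted limma p under 0.05), with Mxi1 at 0.21 and Mycl at 0.58 lowest in adjusted p, and Myc measured -0.09 (SE 0.08, limma adjusted p = 0.485).

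Each gene was also set beside its neighbours in the genome. For the 12 genes that fell, the median log2 fold change of the 25 tested genes on either side ranged from -0.08 to 0.08. The lowest such median among the 37 was that of Farsa, -0.27 over its 50 neighbours on chromosome 8, of which 25 were called lower, beside its own -0.14. For Vars2 the median of its neighbours was 0.15, beside its own 0.62. The part of these neighbours in the value of Farsa was not tested.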

How the data were processed

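RNA of differentiating C2C12 cells was hybridised to 4 mouse Affymetrix arrays, 2 of shLSD1 and 2 of shControl cells. The deposited values are linear signal intensities, 1 per probe set, made by the authors with MAS5 in Affymetrix Expression Console, per the submitters' processing notes. On every array the mean after trimming 2% at each end was 500.003.

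Signals under 1 were set to 1 (505 to 704 probe sets per array) and the intensities, as deposited by the authors, were taken to log2. Of 45101 probe sets, 34945 had 1 gene symbol in the platform annotation, 932 several, 9160 none and 64 were controls; only the first kind was used. Each gene was read from its brightest probe set, avoiding the type that ends in _x_at, and 10879 of 18193 genes had a mean log2 signal above the median of probe sets, 6.03. These were fitted with limma 3.58.1 (R 4.3.3; lmFit, eBayes with an intensity trend) and p-values were adjusted by Benjamini-Hochberg over all of them, with a threshold of 0.05. The whole procedure was tested on simulated data. Figures were drawn with matplotlib 3.10.9.

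Log2 signals correlated at 0.991 within shLSD1, 0.993 within shControl and 0.977 to 0.978 across groups. Both groups carry the replicate numbers 1 and 2, and the labels do not say what a number shares. The members and the gene lists were chosen with earlier results of these data known. Named were every member, Kdm1a and, of each of the 8 other lists, up to 4 genes with the smallest adjusted p past the threshold, or the 2 smallest where none passed. The text marks most further genes as named after their values were seen; Chac1, Psph, Nupr1, Myc and the marker genes Csf1r, Ptprc, Pecam1 and Adipoq were too. The promoter letter patterns were chosen after the data were seen. The 16 alternatives cover normalization, offset, filter, variance model, choice of probe set, replicate block, threshold and each array left out.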

Additional observations from a re-analysis of the deposited data

How the results depend on the processing

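Over the alternatives, each of the 12 synthetase and scaffold genes that fell kept its direction, which most of the alternatives could not have changed. The count of 12 lower was also 12 with quantile normalization, median centring, an offset of 32, the stricter filter, robust variance and every probe set fitted, 10 with no filter and 8 when probe sets were averaged per gene. Without the intensity trend it was 1 (cytosolic 0, mitochondrial 1, scaffold 0), with 262 lower and 375 higher over all genes and 6 lower and 0 higher in the context lists. When probe sets were averaged, the cytosolic count was 5 and the mitochondrial 1, with 407 lower and 494 higher over all genes and 2 higher in the context lists. At an adjusted p of 0.01 the member count was 2 (cytosolic 0, mitochondrial 1, scaffold 1), with 348 lower and 415 higher over all genes and 1 context gene higher. At 0.1 it was 14 lower and 1 higher, the mitochondrial Vars2, with 1159 lower and 1437 higher over all genes, and 23 context genes were lower. Context genes higher numbered 3 with median centring, 2 with no filter and 3 with every probe set. With single arrays left out, the member count ranged from 1 to 13, the cytosolic from 0 to 9, the mitochondrial from 1 to 2 and the scaffold from 0 to 2. All genes ranged from 228 to 1041 lower and from 349 to 1151 higher, and context genes from 7 to 21 lower and from 0 to 9 higher. The lowest counts came without a shControl array. The cause of these changes was not tested.

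Same-numbered arrays did not deviate together (correlation 0.002867), and the labels do not say what a number marks, so they were not treated as pairs. A fit with the replicate number as a block called 13 members lower, against 12 without it, the added one being Eprs.

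Among the synthetase and scaffold genes, signs turned only for genes that did not pass the test. Cars2 was -0.0224 with quantile normalization, -0.0168 with median centring and -0.0130 with averaged probe sets, which also gave 0.26 for Fars2, 0.69 for Farsa and 0.0122 for Hars2. With single arrays left out, the values ranged for Aars from -0.17 to 0.0122, for Aimp1 from -0.0882 to 0.0049, for Cars2 from -0.0442 to 0.0538, for Ears2 from -0.28 to 0.18, for Fars2 from -0.14 to 0.13, for Hars2 from -0.12 to 0.00115. They ranged for Iars2 from -0.095 to 0.0368, for Pars2 from -0.0163 to 0.12, for Sars2 from -0.31 to 0.29, for Tars2 from -0.30 to 0.0688, for Yars from -0.38 to 0.0989 and for Yars2 from -0.0267 to 0.0054.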
